A study of Mus musculus with 6 samples.

Results

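The YTH-domain readers are the proteins that bind N6-methyladenosine (m6A), the commonest internal modification of messenger RNA, through a shared fold called the YTH domain. The mouse genes are Ythdf1, Ythdf2, Ythdf3, Ythdc1 and Ythdc2. They were taken by gene name, and all 5 were present, each in 1 row, among the 55359 genes of the deposited table. The samples were hearts of C57BL/6 mice, and every heart had gone through ischemia-reperfusion (I/R), with 45 min of stopped blood flow and 24 h of restored flow. The tested mice had received an AAV9 vector with a short hairpin RNA (shRNA) against YTHDF2 through the tail vein (libraries shYthdf2 1 to 3), and the control mice had received AAV9 with a negative control shRNA (libraries shNC 1 to 3). Injection preceded surgery by 4 weeks. AAV9 is a viral vector of a serotype known to enter cardiomyocytes. The construct carried GFP and the cTNT promoter, a troponin promoter of heart muscle, whereas RNA came from whole hearts with all their cell types. The labels do not say which promoter drove the shRNA. There was no group without surgery or without vector, the age of the mice and the shRNA sequence are not stated in the labels, and nothing in them tells whether replicates were separate mice. The p-values therefore describe the spread among these 6 samples, which may be technical.

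The family divides by place and partner. YTHDF2 stays in the cytoplasm and recruits the CCR4-NOT deadenylase to shorten the tails of methylated transcripts, which leads to their decay. YTHDF1 has been tied to translation of methylated messages and YTHDF3 to both translation and decay, and how far these 3 paralogs stand in for each other is debated. YTHDC1 works in the nucleus, where it acts in splicing and export, and YTHDC2 is an RNA helicase known best from meiosis in the germ line. In mouse heart, METTL3, the enzyme that writes m6A, has been tied to the growth of cardiomyocytes.

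Whether reads can be told apart among the paralogs decides what a gene-level count means. The stretch below is the 90-base coding window, in the large coding exon of each gene, where Ythdf1 and Ythdf3 together were most like Ythdf2. It codes for the beginning of the YTH domain, and the corresponding bases of 2 processed pseudogenes of the X chromosome, Gm6823 and Gm8401, are shown with it. Sequences are from GENCODE M21 (GRCm38), 5′ to 3′ on the strand of the gene, and capitals mark bases that differ from Ythdf2.
Ythdf2: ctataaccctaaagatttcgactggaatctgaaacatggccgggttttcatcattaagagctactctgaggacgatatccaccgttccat
Ythdf1: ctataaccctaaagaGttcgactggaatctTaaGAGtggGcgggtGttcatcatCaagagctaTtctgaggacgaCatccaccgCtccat
Ythdf3: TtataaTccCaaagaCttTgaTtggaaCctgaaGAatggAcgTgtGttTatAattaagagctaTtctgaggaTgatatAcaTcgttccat
Gm6823: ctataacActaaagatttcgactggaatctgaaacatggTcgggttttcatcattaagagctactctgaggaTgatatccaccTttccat
Gm8401: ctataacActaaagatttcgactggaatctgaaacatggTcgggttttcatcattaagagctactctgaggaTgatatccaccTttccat

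The window lies at chr4:132204568-132204657 on the minus strand for Ythdf2, at chr2:180911123-180911212 on the minus strand for Ythdf1 and at chr3:16204899-16204988 on the plus strand for Ythdf3. Even here Ythdf1 differed from Ythdf2 at 11 bases and Ythdf3 at 18, while each pseudogene differed at 4. Over the whole aligned exon, 67.5% of bases of Ythdf1 and 68.9% of Ythdf3 equalled Ythdf2. The longest run of identical bases between transcripts of any pair of the 5 readers was 22, between Ythdf1 and Ythdf2, so no run of 31 bases was shared. Ythdf1 and Ythdf3 shared no run of 31 bases with any other gene on either strand.

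The pseudogenes were the closest copies of a reader. They equalled Ythdf2 at 96.4% of aligned bases, the longest identical run was 129 bases, and 12.7% of the 31-base runs of Ythdf2 transcripts recurred in another gene, 7.49% of the 50-base runs. The deposited rows of Gm6823 and Gm8401 together held 0, 6 and 2 counts in shYthdf2 1, 2 and 3 and 0 counts in each shNC library. The largest of these sums was 0.303% of the Ythdf2 count of the same library, so almost no reads were assigned to the copies. Reads that match both Ythdf2 and a pseudogene cannot be told apart, and how the authors treated them is not given in the sources used here. Ythdc1 overlapped 1 other row on the same strand, the long noncoding Gm43055, which had 0 counts in all libraries. Of the 31-base runs of Ythdc1 transcripts, 6.99% recurred in another gene, most often in Gm43055, and 1.13% of those of Ythdc2 did. No row overlapped the other readers.

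The libraries held 67023813 to 77561552 counts, and each reader had at least 552 counts in every library. Heart muscle markers were abundant throughout, with the cardiac myosin gene Myh6 at 4590 to 17200 CPM (counts scaled to a common library size, here one adjusted by TMM). Libraries were unevenly spaced: the smallest root mean square difference between a pair was 0.87 on the log2 scale over the 20489 genes tested, between shYthdf2 1 and shYthdf2 2, and the largest was 1.41, between shNC 2 and shNC 3. The counts of shYthdf2 1 and 2 differed by a chi-square per gene of 49.96, against 151.1 or more in the other pairs, and several markers were nearly equal in them, such as Pf4 at 71.8 and 71.7 CPM. Counting noise alone gives about 1, but separate preparations of 1 heart would exceed that too, so whether these are 2 hearts was not tested. They were kept as 2 libraries, as labelled. Summed as 1 sample they gave log2 fold changes of 0.29 for Ythdf2, 0.18 for Ythdf1, -0.24 for Ythdf3, 0.11 for Ythdc1 and 0.08 for Ythdc2, with 0 of the 5 called by edgeR.

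Ythdf2, the target of the shRNA, had a higher mean in the libraries labelled YTHDF2 shRNA than in the controls, without passing the test. The table lists the gene (ENSMUSG00000040025) on the minus strand of chromosome 4 from 131912223 to 131939614. The build of the listed coordinates is not named. It differs from GRCm38, because the GRCm38 windows of Ythdf1, Ythdf2 and Ythdf3 given above lie outside the listed spans of these genes. Ythdf2 had 1813, 1981 and 2489 raw counts in shYthdf2 1, 2 and 3, against 1532, 1647 and 2049 in shNC 1, 2 and 3. Scaled to depth these were 25.1, 25.6 and 32.7 CPM in shYthdf2, against 20.7, 24.3 and 27.0 CPM in shNC. The highest library was shYthdf2 3 and the lowest shNC 1, the order of the others was mixed, and the groups overlapped.

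In edgeR's quasi-likelihood test over 20489 genes, the level of Ythdf2 in shYthdf2 was 1.16 times that in shNC, with a 95% interval from 0.839 to 1.602 (adjusted p = 0.976, Benjamini-Hochberg over all genes tested). The lower end of that interval is a fall of 16.1%, so a larger fall of the whole-heart transcript lay outside it. The exact two-sided permutation test of the 6 CPM values gave p = 0.4, where 0.1 is the smallest value that 3 against 3 libraries allow. With any 1 library left out the log2 fold change stayed above 0, from 0.08 without shYthdf2 3 to 0.31 without shNC 3. Because the labelled target did not separate the labels, each direction given here is one between library labels, not between known levels of YTHDF2. In RNA of a whole heart, fewer cells of a type and less RNA per cell cannot be told apart, and a count per gene does not show the protein.

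Counting error was small beside the spread between libraries. It came to 2.004% to 2.555% of the Ythdf2 count in single libraries, whereas the coefficient of variation of Ythdf2 CPM over the 6 libraries was 15.3%. The precision of the comparison was thus set by the libraries and not by the depth.

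Ythdf1 followed a like order. Its gene (ENSMUSG00000038848, chromosome 2, 180546170 to 180562742, minus strand) had 30.69, 32.01 and 39.35 CPM in shYthdf2, against 29.43, 29.52 and 35.52 CPM in shNC. Library 3 was the highest of each group, and the groups overlapped. The log2 fold change was 0.11 ± 0.19 (SE; edgeR adjusted p = 0.976), and it was near 0 without shYthdf2 3, at -0.0025.

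Ythdf3 was the most abundant reader and the one with a negative difference. Its gene (ENSMUSG00000047213, chromosome 3, 16237376 to 16271201, plus strand) had 62.3, 69.0 and 60.9 CPM in shYthdf2, against 81.1, 80.4 and 63.9 CPM in shNC. The libraries shNC 1 and 2 stood above the rest, and shNC 3 lay among the shYthdf2 libraries. The means were 64.1 ± 4.37 CPM in shYthdf2 and 75.1 ± 9.76 CPM in shNC (SD, n = 3 each). The log2 fold change of Ythdf3 came to -0.23 ± 0.18 (SE; edgeR adjusted p = 0.976). Its 95% interval ran from -0.65 to 0.19, and leaving out 1 library gave -0.33 to -0.17.

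**Figure D1:**
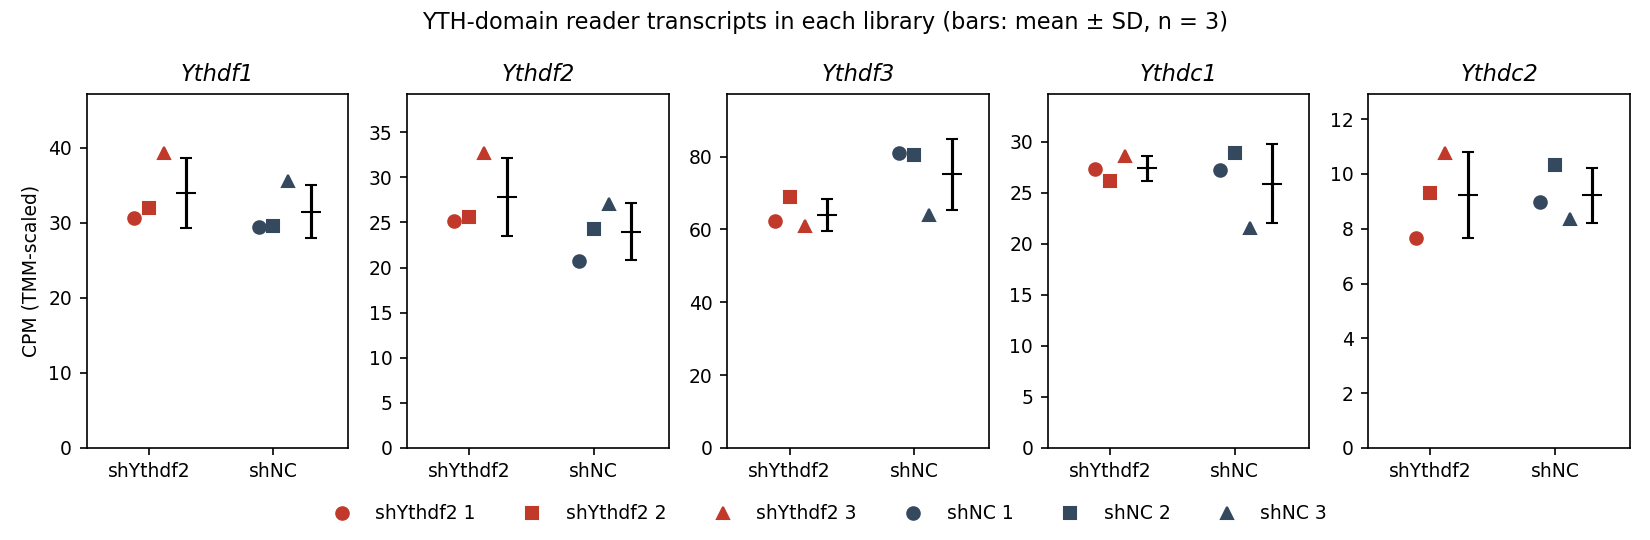
Each panel plots 1 reader, with CPM on the vertical axis from 0, a point for each library (shYthdf2 left, shNC right, marker shape for the replicate number) and the mean ± SD beside the points (n = 3). The groups overlap for all 5 genes, and for Ythdf3 the libraries shNC 1 and 2, at 81.1 and 80.4 CPM, stand above the other 4.

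The nuclear reader Ythdc1 and the helicase Ythdc2 had estimates nearer to 0. Ythdc1 (ENSMUSG00000035851, chromosome 5, 86952080 to 86984518, plus strand) had 27.4, 26.2 and 28.6 CPM in shYthdf2, against 27.2, 28.9 and 21.5 CPM in shNC. The lowest value was that of shNC 3, and without that library the log2 fold change of 0.08 ± 0.18 (SE) turned to -0.03. Ythdc2 (ENSMUSG00000034653, chromosome 18, 44960813 to 45022784, plus strand) was the least abundant reader, with 7.65, 9.32 and 10.8 CPM in shYthdf2, against 8.98, 10.3 and 8.36 CPM in shNC. The range of shYthdf2 enclosed that of shNC, and its estimate was 0.0044 ± 0.23 (log2, SE; 95% interval -0.53 to 0.54). The adjusted p of edgeR was 0.979 for Ythdc1 and 0.999 for Ythdc2.

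Of the 5 readers, 0 were called by edgeR at an adjusted p under 0.05, where 0.00976% of all genes tested were called, and 0 had an unadjusted p under 0.05, where 3.65% of all genes did. DESeq2 and limma on log2(FPKM + 0.5) called 0 of the 5 as well, where they called 53 and 1 of all 20489 genes tested. The median log2 fold change was 0.08 over the readers and -0.01 over all genes tested, and 4 of the 5 readers were above 0. With intervals as wide as these, a p that misses the threshold does not show that a level was the same in both groups. The largest fall inside the interval ranged from 16.1% for Ythdf2 to 36.2% for Ythdf3.

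**Figure D2:**
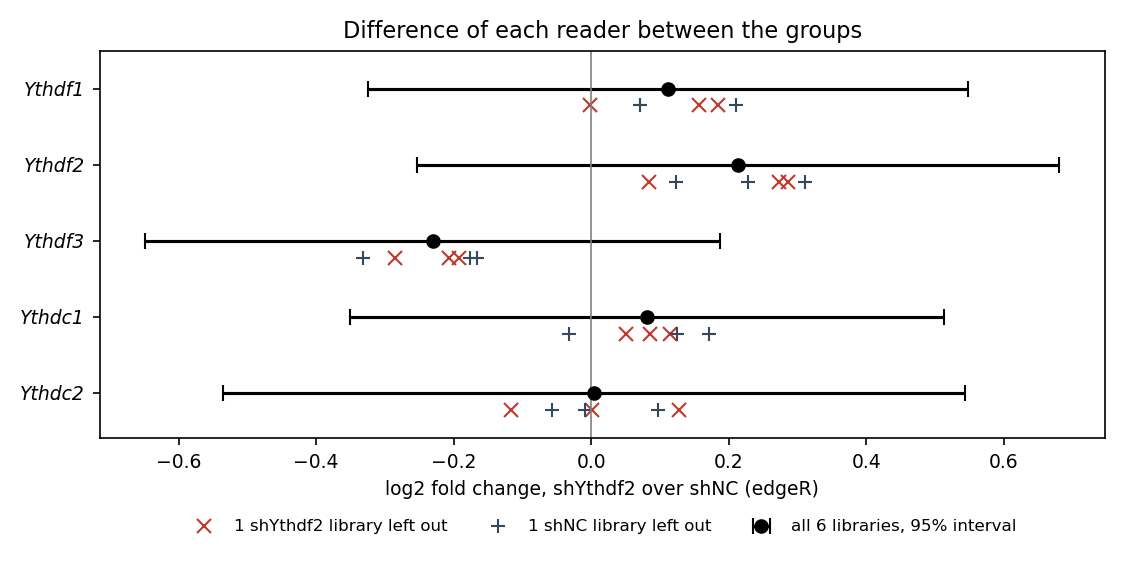
The horizontal axis is the log2 fold change of shYthdf2 over shNC in edgeR, with a row for each reader; black points and bars are the estimate and 95% interval from 6 libraries, and crosses and plus signs are estimates with 1 shYthdf2 or 1 shNC library left out. All 5 intervals include 0, and with 1 library left out Ythdf2 keeps to 0.08 to 0.31 and Ythdf3 to -0.33 to -0.17.

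On the deposited FPKM, 2 readers did not overlap between groups. The FPKM were scaled by gene length and by a library size that is not stated, but not by TMM. Ythdf3 had 10.602, 11.726 and 10.122 FPKM in shYthdf2, against 13.190, 11.999 and 12.054 FPKM in shNC. Ythdc1 had 1.83, 1.74 and 1.87 FPKM in shYthdf2, against 1.74, 1.69 and 1.59 FPKM in shNC, with the nearest values 1.743 and 1.738. So Ythdf3 was lower and Ythdc1 higher in each shYthdf2 library on this scale, and each gave p = 0.1 in the exact two-sided permutation test, the smallest that the design allows. On CPM 0 of the 5 readers were free of overlap. Among all genes tested, 9.08% did not overlap on FPKM (4.19% higher and 4.89% lower in shYthdf2) and 9.51% on CPM (4.95% higher and 4.55% lower). The scales part mainly at shNC 2 and 3, whose TMM factors were 0.897 and 1.13. Over the sum of all counts of a library, Ythdc1 overlapped narrowly. It had 2027 of 76428893 counts in shYthdf2 2 and, by a slightly larger fraction, 2018 of 76026601 in shNC 1. The separation of Ythdc1 thus held on the FPKM but not on these totals.

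As a pool, the 3 cytoplasmic paralogs summed to 24.1, 25.6 and 27.1 FPKM in shYthdf2, against 24.9, 23.4 and 28.9 FPKM in shNC. The sums overlapped, at 25.6 ± 1.52 FPKM in shYthdf2 and 25.7 ± 2.84 FPKM in shNC (SD, n = 3 each; exact two-sided permutation p = 1.0). Within the pool, a ratio inside each library that no scaling of libraries alters, Ythdf2 made up 20.8%, 19.9% and 23.6% in shYthdf2, against 15.9%, 18.2% and 20.7% in shNC. The share was thus higher in 2 of 3 shYthdf2 libraries than in every shNC library, and shYthdf2 2 lay under shNC 3. The means differed by 3.20 percentage points (exact two-sided permutation p = 0.2, unadjusted), and with 1 library left out the difference ran from 2.01 to 4.42.

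Ythdf3 made up 44.1%, 45.8% and 37.4% of the pool in shYthdf2, against 53.0%, 51.4% and 41.8% in shNC. The lowest share of each group was in library 3, where Ythdf1 took its largest share, 39.1% in shYthdf2 3 and 37.6% in shNC 3. Ythdf2 per Ythdf1 varied least, from 0.580 to 0.603 in shYthdf2 and from 0.510 to 0.597 in shNC. The exact p was 0.3 for the shares of Ythdf1 and Ythdf3 and for the ratios of Ythdf2 to Ythdf1, Ythdf2 to Ythdf3 and Ythdf1 to Ythdf3. These 7 tests of the pool, its shares and its ratios share their values and were not adjusted, and the smallest p among them was 0.2.

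**Figure D3:**
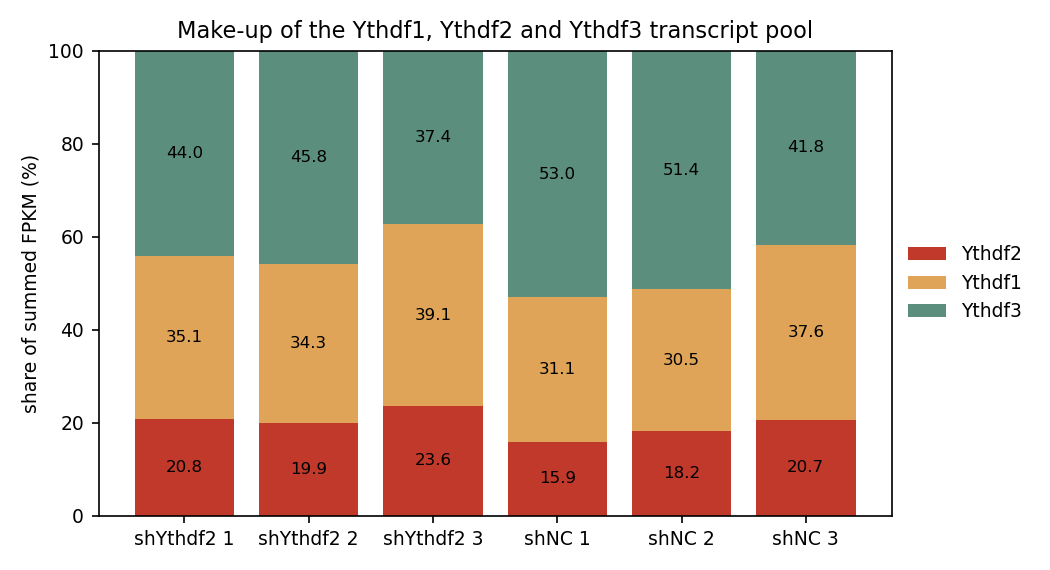
Stacked bars give the percentage of the summed FPKM of Ythdf1, Ythdf2 and Ythdf3 that each gene takes, with a bar for each library (shYthdf2 left, shNC right). The Ythdf2 share at the bottom runs from 19.9% to 23.6% in shYthdf2 and from 15.9% to 20.7% in shNC, and the Ythdf3 share at the top is smallest in library 3 of both groups.

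Levels can be ranked between genes only per length, and for Ythdc1 the rank hung on which length was used. On the deposited FPKM, over 6 libraries, the order of the means was Ythdf3 (11.6 ± 1.10 FPKM), Ythdf1 (8.92 ± 1.51), Ythdf2 (5.11 ± 0.95), Ythdc1 (1.74 ± 0.10) and Ythdc2 (0.93 ± 0.10; SD over libraries). Each neighbour pair kept its order in 6 of 6 libraries except Ythdf3 over Ythdf1, which held in 5. In shYthdf2 3 Ythdf1 had 10.6 FPKM and Ythdf3 10.1 FPKM.

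The lengths behind these FPKM were those of all annotated exons of a gene merged. For 99% of 12351 genes with at least 100 counts in each library, the length implied by count and FPKM was within 5% of the merged exon length in GENCODE M21. Implied lengths were first divided by the library's median ratio of implied to merged length, so the check was of relative lengths. For Ythdc1 that length was 13651 bases, and 4 of its annotated transcripts retain introns, whereas its longest coding transcript has 3269 bases. The other readers' merged length was 1.04 to 1.23 times their longest coding transcript, against 4.18 times for Ythdc1.

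Per length of the longest coding transcript, Ythdc1 came to 7.57 ± 0.26 in shYthdf2 and 6.99 ± 0.31 in shNC (SD, n = 3 each), in units of FPKM. Ythdf2 came to 6.09 ± 0.85 in shYthdf2 and 5.23 ± 1.21 in shNC on that scale. Ythdc1 then ranked above Ythdf2 in 6 of 6 libraries, by 1.01 to 1.66 times, where on the deposited FPKM it lay under Ythdf2 in 6 of 6, by 2.27 to 3.75 times. Ythdf3 and Ythdf1 stayed first and second, and Ythdc2 last, at 1.16 ± 0.18 in shYthdf2 and 1.13 ± 0.04 in shNC. Which transcripts of Ythdc1 the hearts used cannot be read from a table of genes. The change of length moves every library alike and leaves the fold changes of a gene as they were.

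**Figure D4:**
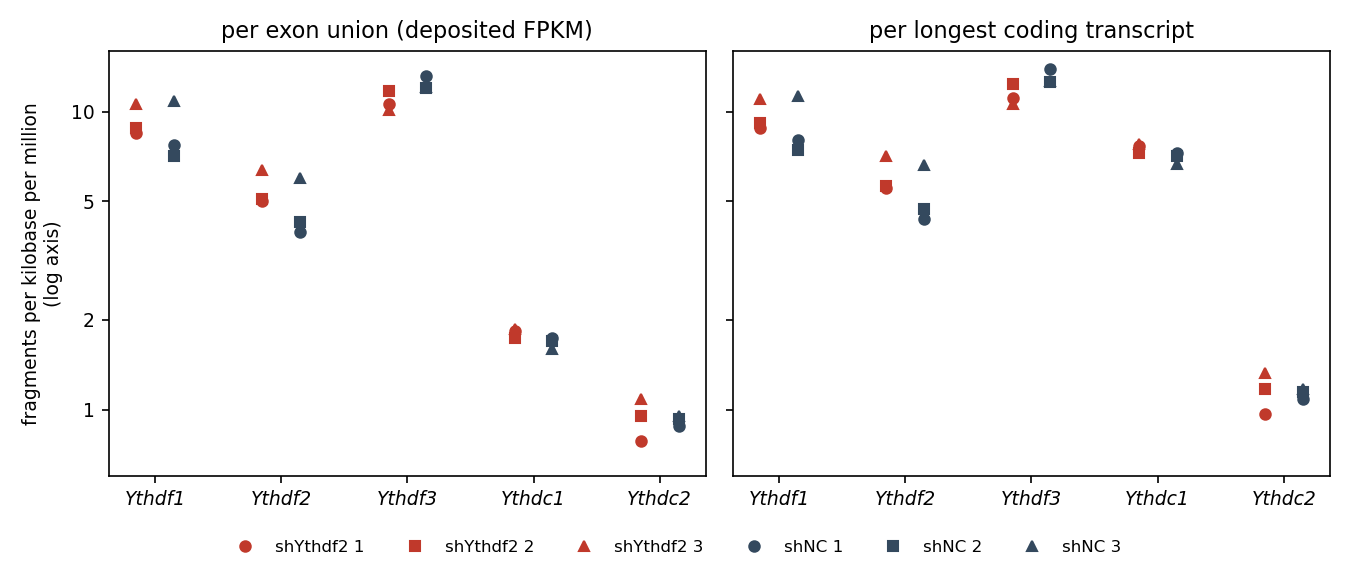
Points are single libraries (shYthdf2 left of shNC for each gene, marker shape for the replicate number), with FPKM on a log axis, per merged exon length at left and per longest coding transcript at right. Ythdc1 lies between 1.59 and 1.87 at left and between 6.65 and 7.80 at right, while the other 4 readers shift little.

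All 5 readers varied less than most genes in these hearts, in a comparison not matched for level. Their mean CPM lay above that of 53.8% (Ythdc2) to 90.5% (Ythdf3) of the genes tested. Of 14486 genes with a mean of at least 1 CPM, 78.1% varied more over the 6 libraries than Ythdf2 and 90.5% more than Ythdc1, by the SD of log2 CPM. The biological coefficient of variation that edgeR fitted was 21.5% to 27.4% for the readers, against a median of 38.2% over the genes tested. The highest library was 1.33 to 1.58 times the lowest in each reader, the largest ratio being that of Ythdf2.

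Among the readers, Ythdf1 and Ythdf2 had the most similar course over the 6 libraries, at a root mean square distance of 0.0851 between their centred log2 CPM. Ythdf2 and Ythdf3 were farthest apart, at 0.346. Of 12978 other named genes at 1 CPM or more, those with the course most like that of Ythdf2 were Fiz1 (distance 0.0245), the importin gene Kpna2 (0.0301) and the aminopeptidase gene Xpnpep1 (0.0315). Nearest to Ythdf1 were the receptor gene Ryk (0.0136), the ornithine carrier gene Slc25a15 (0.0255) and Mfsd14b (0.0361), and nearest to Ythdf3 were Tab1 (0.0328), Zfp141 (0.0451) and Nosip (0.0466). Lemd3 (0.0265), Rflnb (0.0320) and the telomere gene Terf2ip (0.0376) were nearest to Ythdc1, and the nucleoporin gene Nup133 (0.0174), the chaperone gene Daxx (0.0524) and Fkbp3 (0.0534) to Ythdc2. A small distance over 6 libraries is easily met among so many genes and is given as a description.

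The marker RNA of cell types also varied between the libraries. Numbers of cells and RNA per cell cannot be told apart in it. The 8 fibroblast markers summed to 820, 838 and 1576 CPM in shYthdf2 1, 2 and 3, against 913, 760 and 1389 CPM in shNC 1, 2 and 3, so that library 3 of each group was high, as it was for Ythdf1 and Ythdf2. That held for 6 of the 8 genes singly, led by the collagens, and not for Dcn, at 254, 244 and 130 CPM in shNC 1, 2 and 3, nor for Tcf21. The 12 cardiomyocyte markers summed to 28400 to 38840 CPM in shYthdf2, against 42120, 58110 and 26650 CPM in shNC 1, 2 and 3, and the 6 erythroid markers present to 613 to 641 CPM in shYthdf2, against 2096, 3692 and 479 CPM in shNC. Both were high in shNC 1 and 2, as Ythdf3 was. All 6 erythroid markers had shNC 1 and 2 above the other 4 libraries, but only 8 of the 12 cardiomyocyte markers did, the others being Actc1, Atp2a2, Ttn and Nppa. Ttn was higher in every shYthdf2 library, at 1330, 1320 and 1980 CPM, against 811, 798 and 568 CPM in shNC, and Nppa was lowest in shNC 1 and 2. The 7 platelet markers summed to 172, 177 and 52.1 CPM in shYthdf2, against 40.8 to 53.1 CPM in shNC, and the 8 neutrophil markers to 495, 489 and 124 CPM in shYthdf2, against 131, 199 and 379 CPM in shNC. The libraries shYthdf2 1 and 2 stood high in both sums, and each platelet marker was highest in them. Single neutrophil markers differed. S100a8, S100a9 and Cxcr2 were highest in shYthdf2 1 and 2, whereas Csf3r and Mmp9 were highest in shNC 3, at 129 and 45.7 CPM. Ly6g was highest in shNC 2, and for Retnlg and Mmp8 shNC 2 stood above shYthdf2 1.

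Macrophage markers (9) summed to 636 to 730 CPM in shYthdf2, against 469 to 984 CPM in shNC, and endothelial markers (8) to 1332 to 1501 CPM in shYthdf2, against 992 to 1895 CPM in shNC. Smooth muscle and pericyte markers (7) summed to 792 to 1044 CPM in shYthdf2, against 496 to 921 CPM in shNC, a sum that held opposite courses. Only 2 of the 7 genes, the contractile genes Acta2 and Cnn1, had every shYthdf2 library above every shNC library. Acta2 had 320, 321 and 174 CPM in shYthdf2, against 115, 92.8 and 128 CPM in shNC. The contractile genes Myh11 and Tagln overlapped between groups, with shYthdf2 3 under shNC 1 for Myh11 and under shNC 3 for Tagln. Rgs5, Kcnj8 and Pdgfrb overlapped as well. The pericyte gene Rgs5 had 284, 283 and 330 CPM in shYthdf2, against 497, 553 and 138 CPM in shNC. The median log2 fold change of these 7 markers was 1.19. The lymphocyte markers (8) summed to 4.07 to 8.01 CPM in shYthdf2, against 3.04 to 8.26 CPM in shNC. The single marker values at 0 were 1 library for Cd3g and 1 for Klrb1c, both lymphocyte genes. No marker among the deposited genes was thus at 0 throughout. The erythroid marker Ahsp was not among the deposited genes. By edgeR 0 markers were called. Its unadjusted p was under 0.05 in 6 of 6 tested erythroid and 4 of 7 platelet markers. The same held for 4 of 7 smooth muscle and 1 of 12 cardiomyocyte markers. It held for 0 endothelial, fibroblast, macrophage, neutrophil and lymphocyte markers, and for 3.65% of all genes tested. DESeq2 called Acta2, Ppbp, Gp9 and Slc4a1, among 53 called of all 20489 genes, and limma called no marker. The part of cell makeup in the levels of the readers was not tested.

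The rest of the m6A pathway was described by 6 lists of 52 genes. Of the 50 tested, edgeR called 0, DESeq2 0 and limma 0, where they called 2, 53 and 1 of all 20489 genes. In each tool 1 of the 50 had an unadjusted p under 0.05. That is 2% of them, against 3.65% of all genes in edgeR. The median log2 fold change was 0.06, 34 of the 50 were above 0, and 48.6% of all genes tested were. In 6 of the 50, or 12%, the groups did not overlap on CPM, beside 9.51% of all genes. Mettl14, Hnrnpa2b1 and Prrc2a were the 3 higher ones in shYthdf2, and Cnot2, Rida and Pan3 the 3 lower ones.

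The writers add m6A. Of 13 writer genes, 10 were above 0 and 3 below, with a median of 0.07. Mettl3, the catalytic subunit, had 16.6, 13.5 and 14.7 CPM in shYthdf2, against 10.5, 15.4 and 14.7 CPM in shNC. Its partner Mettl14 had 15.6, 13.7 and 18.7 CPM in shYthdf2, against 12.9, 13.6 and 12.5 CPM in shNC. The groups overlapped for Mettl3 and just missed doing so for Mettl14, whose log2 fold change was 0.30 ± 0.20 (SE; edgeR adjusted p = 0.976). Virma, a scaffold of the writer complex, differed by 0.26 ± 0.18 and Mettl5, a methylase of ribosomal RNA, by -0.25 ± 0.27 (log2, SE). Mettl16, which methylates a small nuclear RNA, owed its log2 fold change of 0.61 ± 0.67 (SE) to a single low library, with 23.6, 23.4 and 30.5 CPM in shYthdf2, against 19.2, 2.88 and 28.6 CPM in shNC.

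The erasers remove the mark. Alkbh5 had 51.0, 51.9 and 86.1 CPM in shYthdf2, against 48.5, 51.8 and 54.0 CPM in shNC, and Fto had 46.0, 42.0 and 52.3 CPM in shYthdf2, against 43.3, 44.1 and 36.9 CPM in shNC. Alkbh5 was high only in shYthdf2 3 among these 6 libraries, and both genes overlapped between groups (log2 fold change 0.29 ± 0.24 and 0.18 ± 0.18 SE, edgeR adjusted p = 0.976 each).

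Among 11 other proteins that bind methylated RNA, 7 genes were above 0 and 4 below, with a median of 0.02. Hnrnpa2b1, a nuclear RNA-binding protein, had 330, 351 and 405 CPM in shYthdf2, against 290, 298 and 282 CPM in shNC. Prrc2a had 243, 239 and 243 CPM in shYthdf2, against 214, 169 and 221 CPM in shNC. Both were free of overlap without being called, at log2 fold changes of 0.32 ± 0.19 and 0.27 ± 0.19 (SE; edgeR adjusted p = 0.976 each). Igf2bp1 and Igf2bp3, of a family that stabilises methylated transcripts, were scarce in these hearts, with Igf2bp1 at 0.0789 to 0.685 CPM in shYthdf2, against 0.554 to 1.7 CPM in shNC, and Igf2bp3 at 1.01 to 1.5 CPM in shYthdf2, against 0.103 to 1.36 CPM in shNC.

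The list of decay partners holds genes of tail shortening and degradation, among them the CCR4-NOT complex that YTHDF2 recruits. Not every protein in it, PAN3 for one, is known to be recruited by YTHDF2. Of 19 genes, 13 were above 0 and 6 below, with a median of 0.05. Pan3, of the deadenylase that trims long tails, had 32.7, 24.5 and 31.1 CPM in shYthdf2, against 47.8, 46.8 and 40.8 CPM in shNC. It was lower in 3 of 3 shYthdf2 libraries, by an estimate of -0.62 ± 0.19 (log2, SE), and had the smallest unadjusted p of the 50 genes, 0.0118, which became 0.976 over all genes tested in edgeR. Cnot2, a CCR4-NOT subunit, had 27.0, 34.5 and 36.1 CPM in shYthdf2, against 40.3, 38.3 and 39.0 CPM in shNC (log2 fold change -0.27 ± 0.18 SE, edgeR adjusted p = 0.976). The catalytic subunit gene Cnot7 differed by 0.28 ± 0.23 and Pop1, of RNase P and MRP, by 0.55 ± 0.35 (log2, SE), with overlap in both. Cnot1, the scaffold that YTHDF2 contacts, had 76.8 ± 5.78 CPM in shYthdf2 and 72.7 ± 9.34 CPM in shNC (SD, n = 3 each).

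For partners of the nuclear reader, estimates were small. The 5 genes ran from -0.07 to 0.12 on the log2 scale, with Srsf3, a splicing factor, at 0.12 ± 0.22, the export receptor gene Nxf1 at -0.07 ± 0.17, Srsf10 at -0.03 ± 0.18 and Cpsf6 at 0.08 ± 0.26 (SE). Meioc and Rbm46, the germ-line partners of YTHDC2, were under the filter. Meioc had 0, 4 and 0 counts in shYthdf2, against 4, 0 and 12 in shNC, and Rbm46 had 0, 4 and 0 counts in shYthdf2 and 0 in each shNC library. At these depths a count of 0 allows up to 3 counts, or 0.0387 to 0.0448 CPM by library totals, by counting error of reads alone. Ythdc2 was thus measured in hearts where its meiotic partners were at or near 0.

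**Figure D5:**
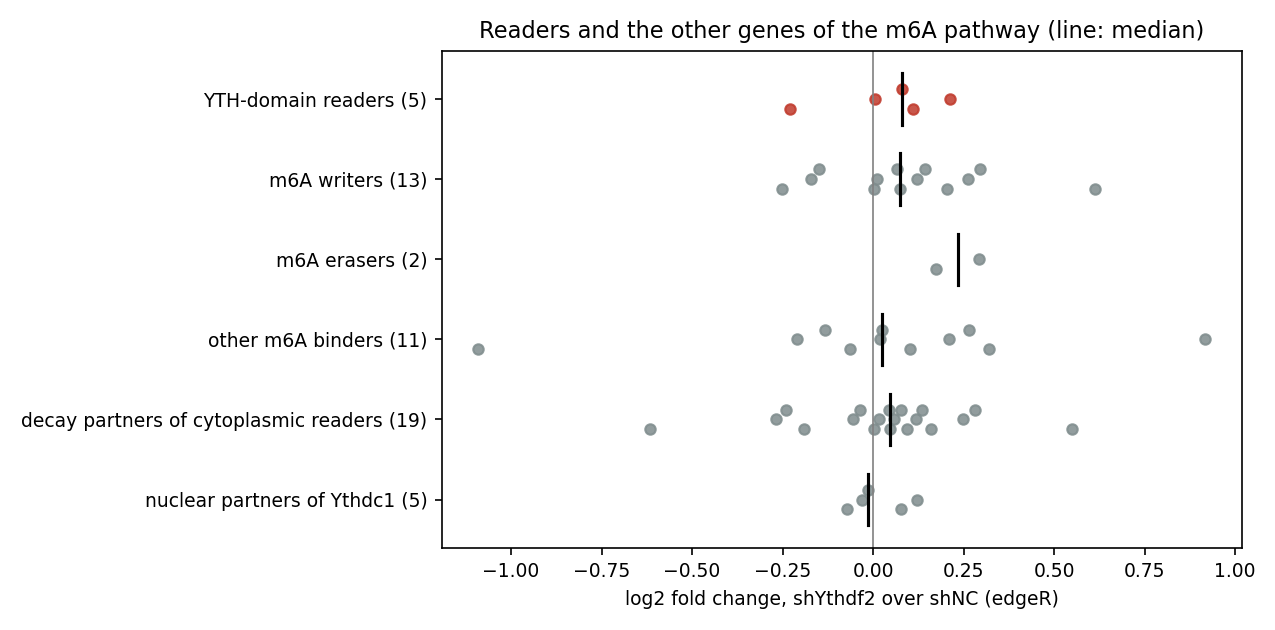
The horizontal axis is the log2 fold change of shYthdf2 over shNC in edgeR; each point is a gene, each row a list with its number of genes tested in brackets, points are spread vertically only to be seen, and the black line is the median. The readers, in red, run from -0.23 to 0.21, and the medians of the lists from -0.01 to 0.23.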

How the data were processed

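Mouse heart RNA was extracted with Trizol in 6 samples and made into libraries with a TruSeq kit, per the labels' protocols. The deposited table holds a raw count and an FPKM value for each gene and sample, per the file headers, and its FPKM are 0.0001 where the count is 0. The submitters' processing notes name Bowtie 0.12.2 and mm8 without a role. No source used here gives the counting tool, its use of strand or the annotation. No per-sample column was left unused.

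Counts were tested with edgeR 4.0.16 in R 4.3.3 (quasi-likelihood, TMM, filterByExpr, 20489 genes, Benjamini-Hochberg). The fit was checked on simulated data for returning fold changes larger than the readers', at a smaller dispersion than fitted here. Power for changes as small as those of the readers was not checked. Standard errors come from the F statistic. Depth was 67023813 to 77561552 counts a library, which gives a counting error of 1.29% to 4.26% for a reader in 1 library. DESeq2 1.42.0, limma 3.58.1, other scalings and filters, a replicate block and libraries left out were alternatives. Transcripts of GENCODE M21 were compared base by base, and the coding exons aligned with MAFFT 7.526.

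Members, lists and tests were chosen with earlier results of these data known. Named genes are the 5 readers, in each pathway list up to 4 genes with the smallest p, Mettl3, Mettl14 and both erasers, and per reader the 3 genes nearest in centred log2 CPM. Cnot1, Elavl1, Rida and single markers were added after their values were seen. Same-numbered libraries did not deviate together (correlations of deviations from -0.0581 to -0.0132 across genes), so the numbers were not taken as pairs.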

Additional observations from a re-analysis of the deposited data

How the results depend on the processing

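Over 16 alternatives for each reader, 70 of 80 log2 fold changes kept their direction, 10 reversed and 0 were called (lowest adjusted p 0.255). Ythdf2 stayed positive and Ythdf3 negative in all 16. Ythdc2 turned to -0.0016 with RLE scaling, -0.034 with upper quartile scaling, -0.018 with at least 1 CPM in 3 libraries, -0.0014 with DESeq2 and -0.0047 with the replicate block. Leaving out 1 library gave -0.12 (without shYthdf2 3) to 0.13 (without shYthdf2 1) for Ythdc2, -0.0025 to 0.21 for Ythdf1 and -0.033 to 0.17 for Ythdc1. The Ythdf2 share kept its direction in 10 of 10 alternatives. The replicate block, at 3.20 points, could not differ, as the mean of paired differences equals the difference of means. Its exact sign-flip p was 0.25, the smallest that 3 pairs allow. The summed level of the paralogs, at -0.0060 on the log2 scale, turned to 0.015 with shYthdf2 1 and 2 averaged, was -0.0020 with the replicate block, and ran from -0.070 to 0.086 with 1 library left out.

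The count of all genes called was 2. It was 1 with library totals only, 53 with DESeq2, 1 with limma on log2(FPKM + 0.5), 1 with limma on log2(FPKM + 0.1), 0 with the replicate block and 0 with shYthdf2 1 and 2 summed. It ran from 0 to 211 with 1 library left out, the 211 without shNC 3. The causes were not tested. The spread between 3 libraries a group, more than depth, limits the readers' comparison. Per length of the longest coding transcript, an alternative added after seeing the data, the share differed by 3.32 points.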

Other observations

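Elavl1, an RNA-binding protein gene of the list of other m6A binders, was named after its values were seen. It had 13.2, 54.3 and 52.9 CPM in shYthdf2, against 36.8, 39.3 and 63.3 CPM in shNC, so that shYthdf2 1 stood low while shYthdf2 2, its closest library over the genes tested, did not. Mettl16 was low in shNC 2 in the same way, at 2.88 CPM against 19.2 and 28.6 CPM in the other shNC libraries. Rida, the linker between YTHDF2 and RNase P and MRP, was likewise named after its values were seen, and it was lower in 3 of 3 shYthdf2 libraries, at 4.58, 5.0 and 5.76 CPM, against 5.90, 6.31 and 5.91 CPM in shNC (log2 fold change -0.24 ± 0.23 SE, edgeR adjusted p = 0.976).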
